A study of Mus musculus with 6 samples.

Results

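The Cyp3a cytochromes, haem enzymes of the liver that oxidise drugs, steroids and bile acids, were described across the livers of 6 mice. The members were the rows of the deposited gene count table named Cyp3a11, Cyp3a13, Cyp3a16, Cyp3a25, Cyp3a41a, Cyp3a41b and Cyp3a44, which are 7 of its 26608 gene symbols, and all 7 were found. The rule uses symbols only, but the family was picked with earlier results of these data known. The livers came from 3 mice labelled LiKM and 3 labelled LiK, all 6 weeks old, and were sequenced as messenger RNA, 1 library per mouse. The genotype names are not explained in the labels. It is known from the study's publication that LiKM hepatocytes lack Mdm2, the ubiquitin ligase that keeps p53 low, whereas LiK hepatocytes carry it. What else both genotypes share, the promoter that drives the deletion, the strain and the labelled sex were not found in the sources used here.

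Microsomal P450 enzymes take electrons from the reductase encoded by Por and bind oxygen at a haem held by a conserved cysteine. In mouse liver, Cyp3a11 is the main enzyme of the family and is induced through the nuclear receptors PXR and CAR, and Cyp3a25 and Cyp3a13 are expressed in both sexes. Cyp3a41a, Cyp3a41b and Cyp3a44 are known as genes of the adult female liver, where the rhythm of growth hormone secretion sets the level, and Cyp3a16 as a gene of the fetal and neonatal liver.

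The libraries held 19909993 to 20762712 counts for the LiKM mice and 20778717 to 24874343 for the LiK mice, with 16847 to 17472 genes detected. The unit of level is CPM, a count divided by its TMM-scaled library size on a shared scale, shown as the mean ± SD of the 3 livers in each genotype. Mdm2 was at 122, 124 and 60.5 CPM in the LiKM livers and 28.7, 29.0 and 28.6 CPM in the LiK livers, so that every LiKM liver was above every LiK liver. Gene-level counts sum all exons, so these values do not show whether part of the gene is deleted. Hepatocyte markers summed to 172637 to 195951 CPM in LiKM and 174110 to 195568 CPM in LiK livers, with 0 of 18 called in edgeR (3 at an unadjusted p under 0.05, and 1 and 0 called by DESeq2 and limma-voom). Ddx3y, a Y-linked gene, lay between 50.6 and 59.6 CPM in all 6 libraries, and Xist, the RNA of the inactive X chromosome, had 1 to 5 counts in each.

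The genes are close copies of each other, and the sequence around the haem-binding cysteine shows how close. The first line marks the cysteine codon of Cyp3a11 in capitals, and in the other lines capitals mark the bases that differ from Cyp3a11. The runs are coding bases 1297 to 1356 of Cyp3a11, Cyp3a44, Cyp3a16 and Cyp3a41a, and 1294 to 1353 of Cyp3a25 and Cyp3a13, from the GENCODE M21 transcripts, all from genes on chromosome 5.
Cyp3a11: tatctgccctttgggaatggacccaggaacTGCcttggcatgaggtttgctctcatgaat
Cyp3a44: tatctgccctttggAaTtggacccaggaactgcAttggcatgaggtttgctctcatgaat
Cyp3a16: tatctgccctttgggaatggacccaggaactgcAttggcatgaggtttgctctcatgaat
Cyp3a41a: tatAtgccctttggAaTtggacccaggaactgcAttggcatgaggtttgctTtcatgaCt
Cyp3a25: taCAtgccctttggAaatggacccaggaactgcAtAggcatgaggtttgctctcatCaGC
Cyp3a13: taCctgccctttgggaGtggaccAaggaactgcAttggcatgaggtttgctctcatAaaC
Over these 60 bases, Cyp3a16 differed from Cyp3a11 at 1 base, Cyp3a44 at 3, Cyp3a41a and Cyp3a13 at 6 and Cyp3a25 at 8.

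Over the whole coding sequence, Cyp3a11 shared 94.9% of its bases with Cyp3a44, 95.2% with Cyp3a41a and 92.8% with Cyp3a16, but 76.1% with Cyp3a25 and 76.7% with Cyp3a13. Cyp3a41a and Cyp3a41b were 99.9% identical, with 2 mismatches in 1515 coding bases. Such copies can exchange reads when counted. Of all runs of 75 bases in a transcript, 100% in Cyp3a13, 98.4% in Cyp3a16, 96.3% in Cyp3a11, 89.0% in Cyp3a44 and 88.8% in Cyp3a25 occurred in no other gene, but 4.73% in Cyp3a41a and 9.10% in Cyp3a41b. Counts of Cyp3a41a and Cyp3a41b are therefore uncertain as to which copy they came from, and the other members share far fewer such runs. This measure leaves out abundance and reads with mismatches, and Cyp3a44 had only 4.996 to 346 counts per 100000 of Cyp3a11. Whether some counts of Cyp3a44 or Cyp3a16 are reads of Cyp3a11 was not tested. The sources used here do not give the read length.

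The bases just before the start sites fall into the same families. The lines below give the last 200 bases before the start site in the RefSeq promoters for GRCm38.p6, all on the minus strand, at chr5:145879855-145880054 for Cyp3a11, chr5:145805875-145806074 for Cyp3a44, chr5:145720137-145720336 for Cyp3a41a, chr5:145469724-145469923 for Cyp3a16 and chr5:146009619-146009818 for Cyp3a25. Capitals mark matches to the motif TGTTTAC, bound by FOXA factors, and to ATTGAT, bound by ONECUT1 and here read on the opposite strand as ATCAAT. They are shown because Cyp3a44, Cyp3a41a and Cyp3a16 are near copies here although their levels differed, with Cyp3a11 and Cyp3a25 for contrast.
Cyp3a11: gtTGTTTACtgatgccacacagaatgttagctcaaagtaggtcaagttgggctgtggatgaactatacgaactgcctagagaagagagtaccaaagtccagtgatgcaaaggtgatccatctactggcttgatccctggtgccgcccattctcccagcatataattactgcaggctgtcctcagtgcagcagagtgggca
Cyp3a44: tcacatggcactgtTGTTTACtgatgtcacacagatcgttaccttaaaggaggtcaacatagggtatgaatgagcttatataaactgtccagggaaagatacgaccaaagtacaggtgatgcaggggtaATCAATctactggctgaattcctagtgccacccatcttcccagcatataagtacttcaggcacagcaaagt
Cyp3a41a: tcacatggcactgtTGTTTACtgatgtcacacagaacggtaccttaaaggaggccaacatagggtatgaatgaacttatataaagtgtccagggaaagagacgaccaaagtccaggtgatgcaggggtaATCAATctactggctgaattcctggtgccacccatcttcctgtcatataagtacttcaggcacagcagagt
Cyp3a16: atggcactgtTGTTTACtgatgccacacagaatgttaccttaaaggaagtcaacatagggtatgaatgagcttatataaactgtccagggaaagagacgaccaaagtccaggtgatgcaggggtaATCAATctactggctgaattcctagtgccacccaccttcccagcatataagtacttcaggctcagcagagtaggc
Cyp3a25: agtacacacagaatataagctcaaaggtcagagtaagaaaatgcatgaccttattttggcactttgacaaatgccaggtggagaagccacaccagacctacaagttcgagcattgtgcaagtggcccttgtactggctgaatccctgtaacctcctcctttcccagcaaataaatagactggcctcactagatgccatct
Promoter identity was 94.4% between Cyp3a41a and Cyp3a44, 92.9% between Cyp3a16 and Cyp3a44 and 72.1% between Cyp3a11 and Cyp3a44.

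Both strands of each 300-base promoter window were searched. TGTTTAC occurred in 5 of the 7 members, namely Cyp3a11, Cyp3a16, Cyp3a41a, Cyp3a41b and Cyp3a44, and in 3.65% of 32851 promoters of the same length. ATTGAT occurred in Cyp3a16, Cyp3a41a, Cyp3a41b and Cyp3a44 and in 7.54% of all promoters. The members share sequence by descent, so these matches are not independent of each other. The STAT5 motif, TTC and GAA with 3 bases of any kind between them, occurred in 0 members and in 8.30% of all promoters. Pairs of the PXR and CAR half-sites AGTTCA or AGGTCA, as direct repeats with spacers of 3 or 4 bases or everted repeats with a spacer of 6, occurred in 0 members and in at most 0.0274% of all promoters for any of these arrangements. A match is a description of the letters, and its absence says only that these letters are not in this window.

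The family as a whole was a small part of the liver transcriptome and was mostly Cyp3a11. The 7 genes took 0.560%, 0.466% and 0.821% of all counts in the LiKM livers and 0.104%, 0.395% and 0.443% in the LiK livers. All LiKM livers lay above all LiK livers, by a narrow margin between LiKM 2 and LiK 3, and LiK 1 was far below the rest. The means were 0.616% ± 0.184 in LiKM and 0.314% ± 0.183 in LiK (SD, n = 3 each). The two-sided exact permutation test over libraries gave p = 0.1, the smallest value that 3 against 3 libraries allow, so this design cannot pass 0.05. Adjusted by Benjamini-Hochberg over the 8 shares and ratios compared in this way, this exact permutation p was 0.133. The difference of 0.302 percentage points was 0.197 without LiK 1 and 0.200 without LiKM 3. In bulk liver RNA, fewer cells that express a gene and less RNA per cell cannot be told apart.

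**Figure D1:**
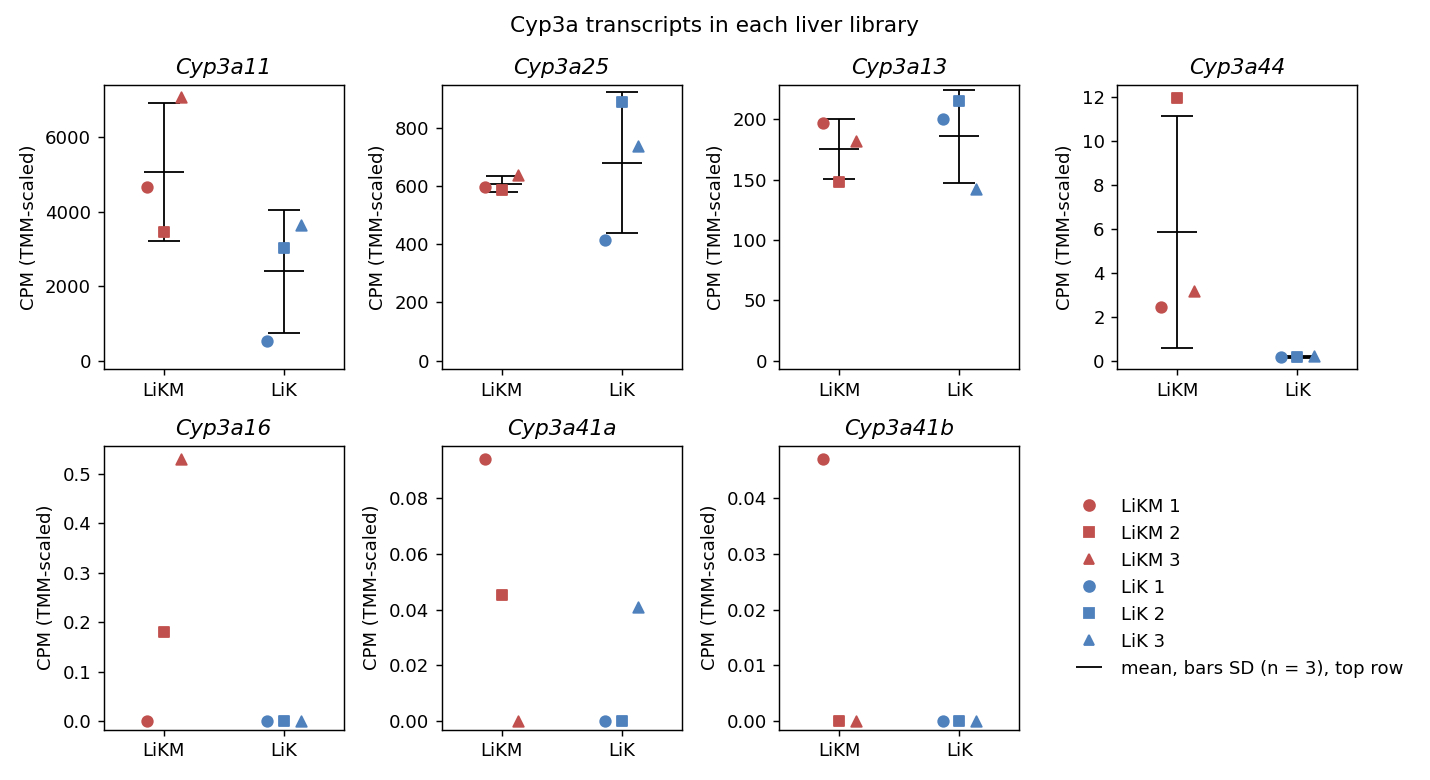
Level of each Cyp3a gene in CPM after TMM scaling, on a linear axis of its own per panel, in the 3 LiKM livers (red) and the 3 LiK livers (blue); bars in the top row are mean ± SD. The LiK livers lie near 0 for Cyp3a44 and all LiKM livers lie above them, while the groups overlap for Cyp3a11, Cyp3a25 and Cyp3a13.

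Of the 7 members, 4 passed the expression filter and were tested with all other genes in edgeR's quasi-likelihood test. One, Cyp3a44, was higher in LiKM livers (Benjamini-Hochberg adjusted p under 0.05), and 0 were lower, as also in DESeq2 and limma-voom, with 0 of the other 3 at an unadjusted p under 0.05. Over all 13537 genes tested, 5.92% were called in either direction, 5.11% as higher and 0.813% as lower. Because Cyp3a44 passed the filter only through its counts in the LiKM livers, it had to differ to be tested at all, and the count of 1 carries no weight as a share of the family. Its libraries were also the only ones among the 4 tested members that did not overlap between genotypes, as was the case for 29.7% of all genes tested.

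Cyp3a11, the main drug-metabolising member, was the most abundant and the most variable among the well-expressed ones. Its level was 4665, 3462 and 7082 CPM in the LiKM livers and 535, 3020 and 3636 CPM in the LiK livers. LiKM 3 and LiKM 1 were highest and LiK 1 lowest, and LiK 3 lay above LiKM 2, so the genotypes overlapped. The log2 fold change was 1.08 (SE 0.63, 95% interval -0.41 to 2.57) with an edgeR adjusted p of 0.367 after Benjamini-Hochberg adjustment, which did not pass the threshold. The interval reaches from a modest fall to a rise of more than 5-fold, so neither is set by these 6 mice.

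The spread of Cyp3a11 within LiK was itself unusual. The highest LiK liver held 6.80 times the level of the lowest. The SD of its log2 CPM over the LiK livers was 1.53, above 99.7% of the 4064 genes that averaged at least 5 in log2 CPM, and 0.52 over the LiKM livers, above 91.7% of those genes. In LiK 1, Cyp3a11 lay 2.63 log2 units below the mean of LiK 2 and LiK 3. Among those 4064 genes 1 lay further below, the major urinary protein gene Mup10, looked up after its value was seen, which was high in LiK 3 alone (1204 CPM, against 1.59 in LiK 1 and 0.956 in LiK 2). Without LiK 1 the log2 fold change of Cyp3a11 was 0.60.

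Cyp3a25, a P450 of liver and intestine, was level across the LiKM livers and varied across the LiK livers. Its level was 598, 586 and 639 CPM in LiKM and 414, 888 and 738 CPM in LiK. LiK 1 was again the lowest of the 6, but by 0.97 log2 units below the mean of the other LiK livers, and the LiKM livers fell between the LiK values. The log2 fold change was -0.16 (SE 0.26, 95% interval -0.77 to 0.45), with a Benjamini-Hochberg adjusted p of 0.753 in edgeR. Cyp3a13, which is also expressed in the gut, had 197, 148 and 182 CPM in LiKM and 200, 215 and 142 CPM in LiK. Its genotypes overlapped over nearly their whole range, and LiK 1 was not low for it. Its log2 fold change was -0.08 (SE 0.18, 95% interval -0.51 to 0.35), with an edgeR adjusted p of 0.832 after Benjamini-Hochberg adjustment. For both genes the interval leaves out a rise or fall of 2-fold.

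**Figure D2:**
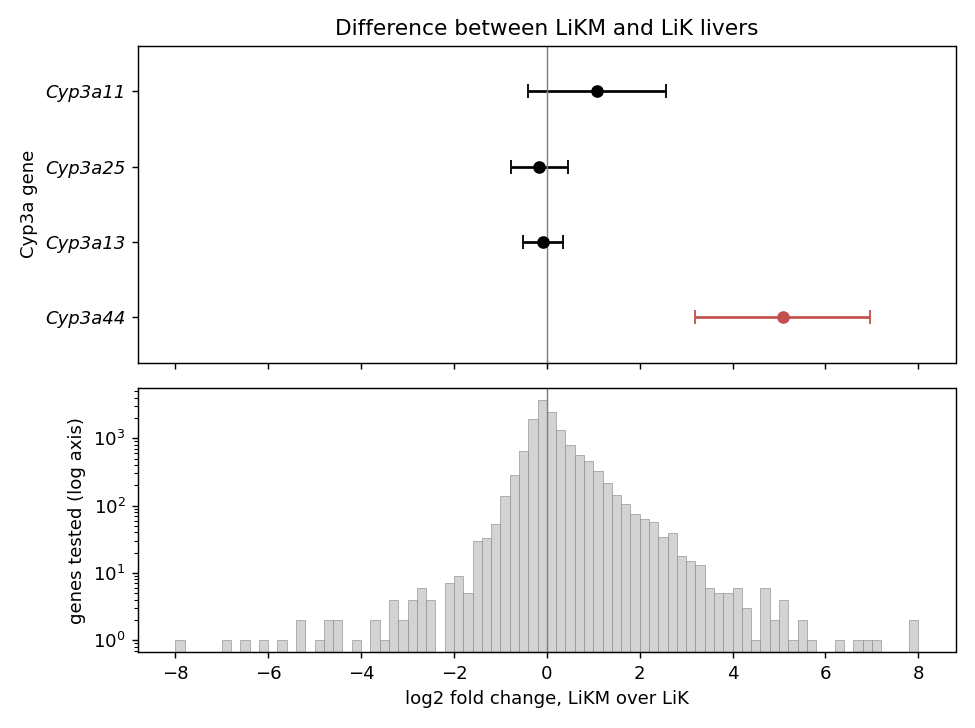
Top, log2 fold change of the 4 tested members, LiKM over LiK, with 95% intervals from edgeR's fit, in red where the adjusted p was under 0.05; bottom, the same quantity for all 13537 genes tested, on a log count axis, with values beyond 8 drawn at 8. The interval of Cyp3a44 (3.19 to 6.96) lies above 0, and those of Cyp3a11, Cyp3a25 and Cyp3a13 include 0.

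Cyp3a44, a female-type gene in adult mouse liver, was the member that passed the test. It had 52, 264 and 66 counts in the LiKM livers and 3, 3 and 5 counts in the LiK livers, which is 2.44, 11.97 and 3.18 CPM against 0.144, 0.151 and 0.205 CPM. Every LiKM liver was above every LiK liver, and LiKM 2 stood well above the other LiKM livers. The log2 fold change was 5.08 (SE 0.80, 95% interval 3.19 to 6.96), with an edgeR adjusted p of 0.0221 after Benjamini-Hochberg adjustment, and it ranked 207 of 13537 genes by p. Over pooled counts scaled for library size, the ratio of 382 counts in LiKM to 11 counts in LiK was 35.2, with a 95% interval of 19.5 to 71.2 that covers counting error only. With 2 LiK mice the edgeR adjusted p of Cyp3a44 after Benjamini-Hochberg adjustment was 0.0954 without LiK 1, 0.0874 without LiK 2 and 0.0599 without LiK 3, so the call rests on having all 3, while the log2 fold change lay between 3.99 and 5.42 whichever mouse was left out.

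Cyp3a44 did not track Cyp3a11, its close copy in coding sequence. Per 100000 counts of Cyp3a11 there were 52.3, 346 and 44.9 counts of Cyp3a44 in LiKM and 27.0, 4.996 and 5.64 in LiK. The ratio therefore ranged widely, and LiKM 2 was highest although its Cyp3a11 was the lowest of the LiKM livers. All LiKM ratios were above all LiK ratios (two-sided exact permutation p = 0.1, the smallest possible with 3 libraries per genotype, and 0.133 adjusted over the 8 quantities).

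The remaining female-type and fetal-type members were almost silent in these livers. Cyp3a16, the fetal and neonatal form, had 0, 4 and 11 counts in LiKM and 0, 0 and 0 counts in LiK. It was detected in LiKM 3 and LiKM 2 only, and its 15 pooled counts put LiKM at least 5.07-fold higher than a floor of 3 counts over the LiK group. Cyp3a41a had 2, 1 and 0 counts in LiKM and 0, 0 and 1 in LiK, and Cyp3a41b had 1, 0 and 0 in LiKM and 0, 0 and 0 in LiK. The near-identical pair thus held 5 counts in all, too few for a fold or a direction, and neither copy was detectable above the floor in any one library. None of these 3 members passed the filter. In the fit without a filter, Cyp3a16 had a log2 fold change of 5.37 (SE 1.95) and an edgeR adjusted p of 0.21 after Benjamini-Hochberg adjustment, a fitted value that depends on the prior count because LiK is at 0.

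Levels of different genes were compared per kilobase of coding sequence. Cyp3a11 averaged 3346 ± 1217 CPM per kb in LiKM and 1582 ± 1084 in LiK, Cyp3a25 402 ± 18.3 in LiKM and 450 ± 160 in LiK, Cyp3a13 116 ± 16.4 in LiKM and 123 ± 25.5 in LiK, and Cyp3a44 3.87 ± 3.50 in LiKM and 0.1101 ± 0.02199 in LiK (SD, n = 3 each). The order Cyp3a11, Cyp3a25, Cyp3a13, Cyp3a44 held within each of the 6 libraries. The ranges of neighbouring genes did not overlap in either genotype, with the exception of Cyp3a11 and Cyp3a25 in LiK, where LiK 1 brought Cyp3a11 down to 353 CPM per kb.

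The makeup of the family varied with the level of Cyp3a11. Cyp3a11 made up 85.4%, 82.3% and 89.6% of Cyp3a counts in the LiKM livers and 46.6%, 73.2% and 80.5% in the LiK livers. LiK 1 stood apart, and LiK 3 came within 2 percentage points of LiKM 2. The means were 85.7% ± 3.67 in LiKM and 66.8% ± 17.9 in LiK (SD, n = 3 each), a difference of 18.97 percentage points that became 8.87 without LiK 1. Cyp3a11 counts were 7.80, 5.90 and 11.1 times those of Cyp3a25 in LiKM and 1.29, 3.40 and 4.93 times in LiK, again without overlap. Both quantities gave a two-sided exact permutation p of 0.1, the smallest possible with 3 libraries per genotype, and 0.133 after adjustment over the 8 quantities, so neither passed. The ratio of Cyp3a25 to Cyp3a13 averaged 3.50 ± 0.455 in LiKM and 3.79 ± 1.59 in LiK (two-sided exact permutation p = 0.8, n = 3 each).

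**Figure D3:**
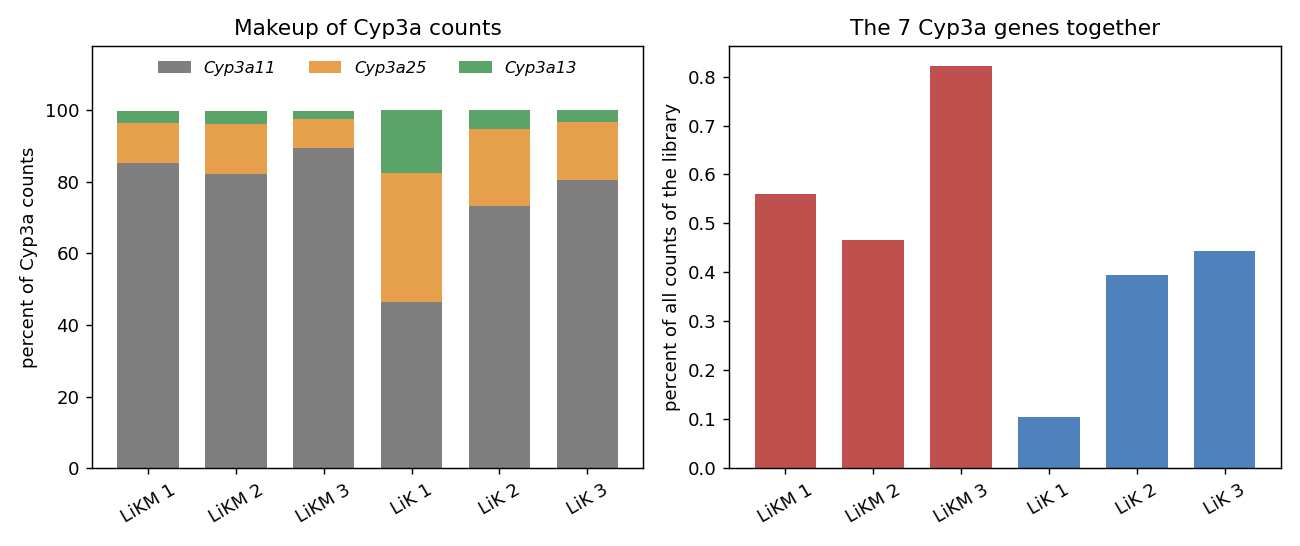
Left, percent of Cyp3a counts taken by Cyp3a11, Cyp3a25 and Cyp3a13 in each library (the other 4 members together fill the rest and are too scarce to draw); right, the 7 genes as a percent of all counts of the library, LiKM in red and LiK in blue. LiK 1 has the smallest Cyp3a11 share (46.6%) and the smallest family share (0.104%).

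Cyp3a genes that are not members help to place LiK 1. Cyp3a59, whose coding sequence is 97.5% identical to Cyp3a25 and whose promoter is 94.8% identical to it, had 81.5, 87.0 and 119 CPM in LiKM and 16.8, 94.8 and 102 CPM in LiK. LiK 1 alone was low, by 2.54 log2 units below the mean of LiK 2 and LiK 3, close to the 2.63 of Cyp3a11 and more than the 0.97 of Cyp3a25. The log2 fold change was 0.43 (SE 0.57) with an edgeR adjusted p of 0.696 after Benjamini-Hochberg adjustment. Cyp3a59 amounted to 1.75%, 2.51% and 1.69% of Cyp3a11 counts in LiKM and 3.15%, 3.14% and 2.80% in LiK (two-sided exact permutation p = 0.1, the smallest possible with 3 libraries per genotype). Cyp3a57, the other one with a row, had 1 count.

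Likeness in pattern was measured as the root mean square difference between 2 genes of log2 CPM centred on the mean of each gene over the 6 libraries, among 10127 genes that averaged at least 2 in log2 CPM. It is a description over 6 libraries of both genotypes, and genes that differ between the genotypes are alike on that account too. The measure weighs size as well as direction, so genes that vary little come out near each other. Genes that move together by unlike amounts come out far apart. Nearest to Cyp3a11 were Tmem229a (0.37), Cyp3a59 (0.37) and Rnaset2b (0.41). Cyp3a59 was thus the second nearest gene to Cyp3a11, though it ranked only 9460 in nearness to Cyp3a25 (0.71), its closest relative in sequence. Both Cyp3a59 and Cyp3a25 were nonetheless lowest in LiK 1, at -2.09 and -0.60 in centred log2 CPM. Nearest to Cyp3a25 were Cyp8b1, an enzyme of bile acid synthesis (0.10), Azi1 (0.11) and Laptm4b (0.11), and nearest to Cyp3a13 were Rbm6 (0.06), Nufip1 (0.07) and Spg20 (0.07). Nearest to Cyp3a44 were Ddit4l (0.58), 4632434I11Rik (0.61) and the chemokine gene Ccl5 (0.68), at a wider distance than for the other members. These were themselves higher in LiKM, with log2 fold changes of 5.10, 3.94 and 4.72, and Ddit4l is also among the p53 target genes listed below. Between tested members, the difference was 0.41 for Cyp3a13 and Cyp3a25, 0.99 for Cyp3a11 and Cyp3a25, 1.25 for Cyp3a11 and Cyp3a13, and 1.85 to 2.29 for Cyp3a44 with any of the others.

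**Figure D4:**
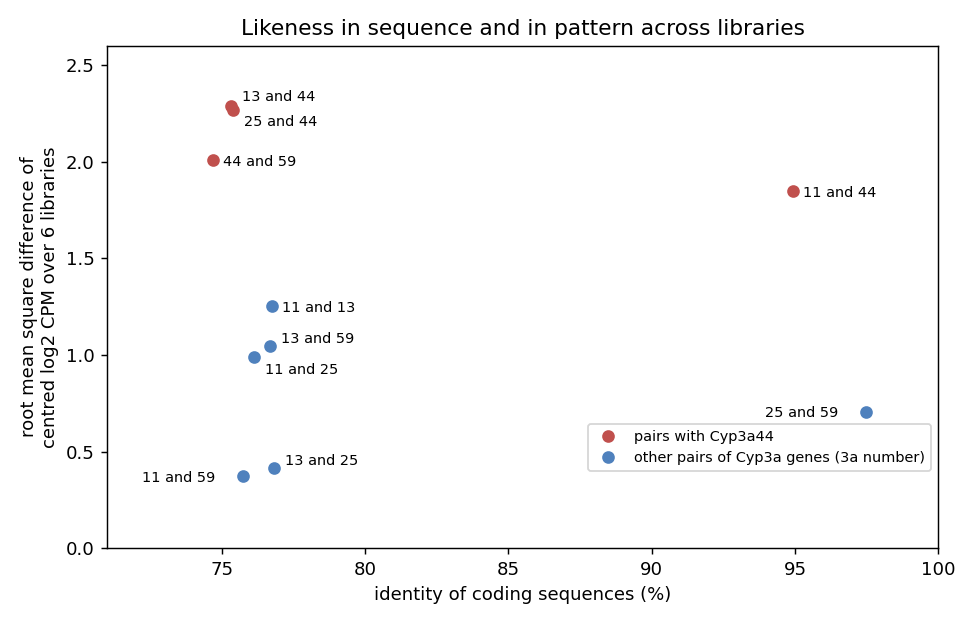
Each point is a pair of Cyp3a genes, with coding identity in percent on the horizontal axis. The vertical axis is the root mean square difference of centred log2 CPM over 6 libraries, where lower means more alike in direction and size. Cyp3a11 and Cyp3a59 lie lowest (0.37) at low identity, and Cyp3a11 and Cyp3a44 lie at 1.85 although 94.9% identical.

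On chromosome 5 the annotation places Cyp3a13 apart from a cluster that holds the other 6 members with Cyp3a57 and Cyp3a59. The order in that cluster is Cyp3a57, Cyp3a16, Cyp3a41b, Cyp3a41a, Cyp3a44, Cyp3a11, Cyp3a25, Cyp3a59, so Cyp3a44 sits between a nearly silent gene and the most abundant one. Of the 12 nearest other protein-coding genes around Cyp3a13 and the cluster, 8 were tested in edgeR. Their Benjamini-Hochberg adjusted p ranged from 0.145 to 0.94, with 2 at an unadjusted p under 0.05. Of the 8, Azgp1 beside Cyp3a13 averaged 1287 ± 115 CPM in LiKM and 1586 ± 61.2 CPM in LiK, with a log2 fold change of -0.30. Pilra, Pilrb1 and Pilrb2 were higher in every LiKM liver than in any LiK liver. Azgp1, Zkscan14 and Zkscan5 were lower in every LiKM liver, while Gjc3 and Zfp655 overlapped. Of all genes tested, 29.7% did not overlap.

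The regulators of the family showed no call. Of 20 nuclear receptors, liver transcription factors and cofactors that act on Cyp3a genes, 0 were called in either direction in edgeR, with 8 at an unadjusted p under 0.05 and 2 called as lower by DESeq2, 2 by limma-voom and 2 by edgeR without LiKM 3. Their median log2 fold change was -0.30, against -0.00 over all genes tested, where 692 were higher and 110 lower. Only 2 of the 20 had a positive log2 fold change, and the 20 summed to 2355 to 2743 CPM in LiKM and 3074 to 3577 CPM in LiK. PXR itself (Nr1i2) averaged 97.0 ± 28.1 CPM in LiKM and 117 ± 22.02 CPM in LiK, and CAR (Nr1i3) 108 ± 37.0 CPM in LiKM and 121 ± 10.9 CPM in LiK. Hnf4a, a master regulator of hepatocyte genes, averaged 651 ± 47.5 CPM in LiKM and 905.5 ± 224 CPM in LiK (log2 fold change -0.48, edgeR Benjamini-Hochberg adjusted p = 0.213). Onecut1, whose motif stands in the Cyp3a44 promoter, was at 9.06, 8.84 and 37.7 CPM in LiKM and 31.1, 52.1 and 36.9 CPM in LiK. LiKM 1 and LiKM 2 were the lowest, but LiKM 3 was within the LiK range, and the gene was not called.

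A few other targets of PXR and CAR were called. Of 27 tested, 5 were higher and 1 was lower in LiKM, with a median log2 fold change of 0.25. The log2 fold change was positive for 14 of the 27, against 6707 of all 13537 genes tested. Over all genes tested, 5.11% were higher and 0.813% lower. The higher ones were the glutathione transferases Gstm3 (log2 fold change 3.62), Gsta1 (3.11), Gstm2 (1.71) and Gstm1 (1.41) and the P450 Cyp2b9 (2.65), and the lower one was the P450 Cyp2c37 (-0.93). Gstm1 averaged 1574 ± 313 CPM in LiKM and 591.5 ± 154 CPM in LiK. Gsta1 had 35, 61 and 29 counts in LiKM and 2, 10 and 2 counts in LiK. It passed the filter only through the LiKM livers and had to differ to be tested. Cyp2b10, a classical target of CAR, was at 33.7, 3.85 and 5.25 CPM in LiKM and 3.37, 5.78 and 1.89 CPM in LiK and was not called. Of 28 other hepatic P450 genes of families 1, 2 and 4, 0 were higher and 3 were lower, Cyp2c37, Cyp2c67 (-0.81) and Cyp4f13 (-0.51), with a median log2 fold change of -0.23. These 28 summed to 10166 to 13964 CPM in LiKM and 14829 to 17994 CPM in LiK. Cyp2c37 is on both lists, and Cyp2b9 is also on the list of female-biased genes. Without LiKM 2, LiK 1 or LiK 2, at most 1 of these PXR and CAR targets was called. Of the 28 P450 genes, 0 were lower without LiKM 1, LiKM 2, LiK 1 or LiK 2, 1 was lower without LiKM 3, and 2 were higher and 2 lower without LiK 3. Limma-voom and the replicate number as a block each gave 2 higher and 5 lower.

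The partners that P450 enzymes need were not called as a group. Of 17 genes for electron transfer and haem, 1 was higher and 0 were lower, about the 5.11% of all genes that were higher, with a median log2 fold change of -0.02 that was 0.14 with library totals. None was called without LiKM 2, LiK 1, LiK 2 or LiK 3. The higher one was Hmox1, which breaks haem down, at 27.5 ± 4.39 CPM in LiKM and 14.2 ± 2.19 CPM in LiK. Por, the electron donor, was at 747, 459 and 145 CPM in LiKM and 867, 709 and 501 CPM in LiK. Alas1, the first enzyme of haem synthesis, was at 849, 707 and 192 CPM in LiKM and 1400, 1036 and 849 CPM in LiK. LiKM 3, the liver with the most Cyp3a11, held the least Por and the least Alas1 of all 6.

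Cyp3a44 was read beside other genes known to be higher in female mouse liver. Of 18 tested, 3 were higher in LiKM and 0 lower, with a median log2 fold change of 0.69. Over all genes tested, 5.11% were higher and 0.813% lower. The 3 higher genes were Hao2, a peroxisomal oxidase (3.67), the P450 Cyp2b9 (2.65) and the P450 Cyp2a22 (1.68). Cyp2b9 was already counted above among the PXR and CAR targets. Hao2 was at 1.22, 1.54 and 2.65 CPM in LiKM and 0.0962, 0 and 0.287 CPM in LiK. Like Cyp3a44, it passed the filter only through its LiKM counts (2, 0 and 7 in LiK) and had to differ to be tested. Cyp2b9 was at 82.4, 114 and 94.3 CPM in LiKM and 9.24, 5.58 and 31.2 CPM in LiK, and Cyp2a22 at 5.92, 12.8 and 6.21 CPM in LiKM and 2.55, 2.01 and 3.20 CPM in LiK. None of these overlapped between genotypes, and neither did Cyp2b13, Nipal1 and Rtn4, which were not called. Cyp2b13 had 87, 14 and 14 counts in LiKM and 2, 1 and 0 in LiK. It too passed the filter only through its LiKM counts and had to differ to be tested. Over all genes tested, 29.7% did not overlap. The count of calls was 0 without LiKM 1, LiKM 2, LiK 1 or LiK 2, 2 without LiKM 3 and 3 without LiK 3. LiKM 2, the liver with the most Cyp3a44, was the highest LiKM liver for 8 of the 18 genes, against 30.3% of all genes tested. Sult1e1 and Cyp17a1, also on the list, did not follow, with the highest Sult1e1 in LiK 1.

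**Figure D5:**
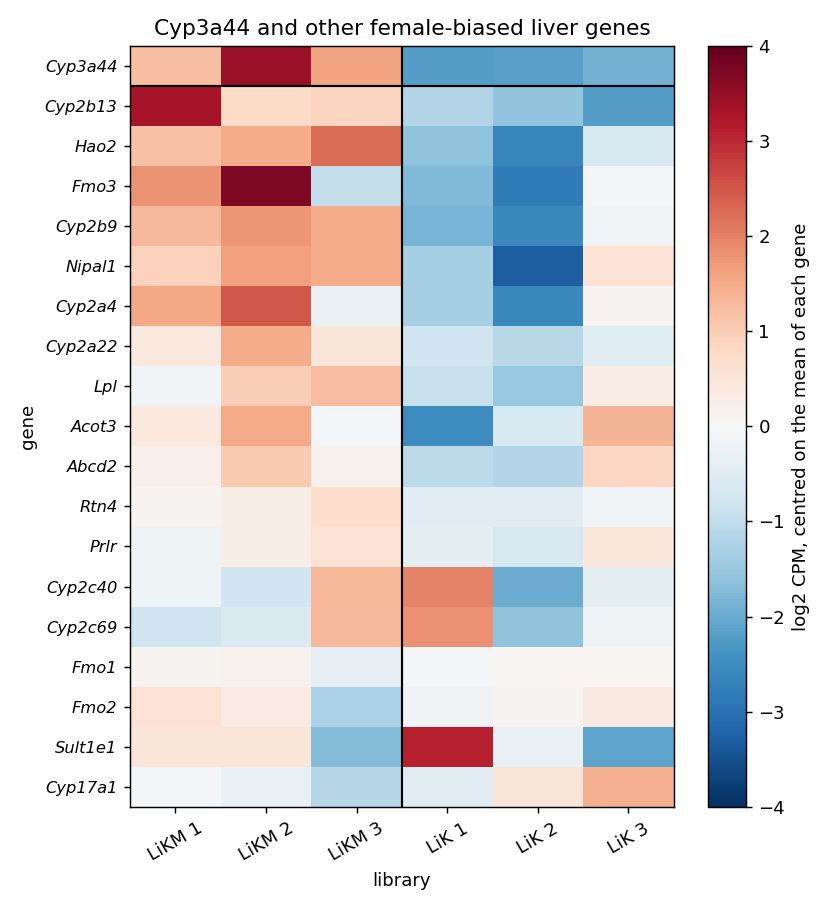
Log2 CPM centred on the mean of each gene (red above, blue below) for Cyp3a44 and 18 other female-biased liver genes in the 3 LiKM libraries, left, and the 3 LiK libraries, right, ordered by the LiKM mean; colours end at 4. Cyp3a44, Hao2, Cyp2b9, Cyp2a22, Cyp2b13, Nipal1 and Rtn4 are higher in all 3 LiKM libraries than in any LiK library. Of these, Cyp3a44, Hao2 and Cyp2b13 passed the filter only through their LiKM counts. Genes at the bottom show no such split. Over all genes tested, 29.7% did not overlap between genotypes.

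Some genes known to be higher in male mouse liver were lower. The 26 tested had a median log2 fold change of -0.94, with 0 of 26 positive. Of these, 0 were higher and 10 were lower in LiKM, against 0.813% lower over all genes tested. They included the major urinary protein genes Mup17 (log2 fold change -6.91), Mup11 (-6.06) and Mup7 (-3.32), the adipokine gene Serpina12 (-2.80) and the P450 Cyp2d40 (-0.93). The count of 10 was 1 without LiKM 2 or LiK 2 and 2 without LiK 1, and 7 to 11 when another mouse was left out. Major urinary protein genes are near copies of each other, so the split of reads among them is uncertain. Cyp7b1, an oxysterol hydroxylase on this list and the list of steroid and bile acid genes, was at 82.5, 29.9 and 19.6 CPM in LiKM and 428, 425 and 183 CPM in LiK. Of 15 genes of growth hormone signalling, 0 were called in edgeR, with 3 at an unadjusted p under 0.05, against 3 calls by DESeq2, 2 by limma-voom and 2 by edgeR without LiKM 3. Ghr, the growth hormone receptor, averaged 440 ± 64.4 CPM in LiKM and 632 ± 83.3 CPM in LiK (log2 fold change -0.52, edgeR Benjamini-Hochberg adjusted p = 0.109).

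Fetal and neonatal liver genes, the class of Cyp3a16, gave 2 higher and 1 lower of 11 tested. Over all genes tested, 5.11% were higher and 0.813% lower. Afp, which encodes alpha-fetoprotein, was at 13.8, 30.3 and 14.02 CPM in LiKM and 3.85, 2.41 and 4.31 CPM in LiK. Cd24a also rose (log2 fold change 1.53), while Slc22a3 was lower (-1.93). None of the 11 was called without LiKM 2, LiK 1 or LiK 2. Afp and Cyp3a44 were both highest in LiKM 2, whereas Cyp3a16 was highest in LiKM 3. Of 19 steroid and bile acid genes, 2 were lower, Cyp7b1 (-2.97) and the steroid dehydrogenase gene Hsd3b5 (-1.63). These 19 summed to 3459 to 4240 CPM in LiKM and 4881 to 5678 CPM in LiK. None of the 19 was called without LiKM 2, LiKM 3, LiK 1 or LiK 2 or with robust shrinkage in edgeR, and 1 was called without LiK 3. Of 18 pericentral genes, which mark the hepatocytes where Cyp3a11 is also high, 1 was higher (the amino acid transporter gene Slc1a4, 2.63) and 1 lower (Cyp2c37). Neither was called without LiKM 2, LiK 1 or LiK 2. The 18 had a median log2 fold change of -0.24 in edgeR, with 7 at an unadjusted p under 0.05. Their summed level was 6265 to 9514 CPM in LiKM and 9797 to 12542 CPM in LiK. DESeq2 called 1 as higher and 5 as lower, and limma-voom 1 as higher and 3 as lower. Of 18 periportal and 18 acute phase genes 0 were called in edgeR, with 7 periportal and 5 acute phase genes at an unadjusted p under 0.05. DESeq2 called 1 periportal and 3 acute phase genes as lower and limma-voom 0 of either, and the median log2 fold changes were -0.28 and -0.67. LiK 3 was the lowest LiK liver for 15 of the 18 acute phase genes, and the serum amyloid gene Saa1 was at 239, 73.9 and 154 CPM in LiKM and 4419, 6289 and 42.0 CPM in LiK. Without LiK 3, 8 acute phase genes were lower in LiKM, with a median log2 fold change of -0.97, and without LiKM 1, 1 periportal gene was higher.

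Markers of other cells moved with genotype beside these results, where 5.11% of all genes tested were higher and 0.813% lower. Of 12 tested T and natural killer cell markers 10 were higher. The list summed to 16.8 to 23.7 CPM in LiKM and 4.10 to 7.51 CPM in LiK. Markers this scarce in LiK may have passed the filter only through the LiKM livers, and such genes had to differ to be tested. With a filter of at least 1 CPM in 3 libraries, 6 were tested and 5 were higher. Calls were 1 without LiKM 2 or LiK 1, 0 without LiK 2, 5 without LiK 3 and 6 without LiKM 1. Of 13 macrophage markers 7 were higher, at 549 to 737 CPM in LiKM and 353 to 450 CPM in LiK, and of 14 stellate cell markers 5 were higher, at 704 to 747 CPM in LiKM and 268 to 446 CPM in LiK. Macrophage calls were 0 without LiKM 2 or LiK 1, 1 without LiK 2 or LiK 3 and 2 without LiKM 1, and stellate cell calls were 0 without LiKM 1, LiKM 2, LiK 1 or LiK 2 and 3 without LiKM 3. Of 24 p53 target genes 16 were higher (7 without LiKM 2, 6 without LiK 1 or LiK 2), a list known from earlier results on these samples and so no independent evidence. Of 8 cholangiocyte and 12 endothelial markers 0 were called in edgeR, with 5 and 4 at an unadjusted p under 0.05, while DESeq2 called 2 cholangiocyte and limma-voom 1 endothelial marker as higher. The part of these shifts in the level of Cyp3a44 was not tested. Of 13 markers of the intestine, where Cyp3a genes are also expressed, 4 (Alpi, Cdx1, Cdx2 and Fabp6) were at 0 in all libraries. The list summed to 211 to 296 CPM in LiKM and 196 to 559 CPM in LiK, most of it from the apolipoprotein gene Apoa4 (221 ± 35.2 CPM in LiKM and 311 ± 160 CPM in LiK), which liver also expresses. Of 4 tested markers, 0 were called by edgeR, DESeq2 or limma-voom, with 0 at an unadjusted p under 0.05.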

How the data were processed

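Total RNA from the livers of 6 mice was made into libraries with a stranded messenger RNA kit, per the labels' protocols. The authors deposited 1 table of raw gene counts, whole numbers that were not normalised. Per the submitters' processing notes, featureCounts did the counting and FastQC 0.11.7 was run. The sources used here do not give the aligner, genome build, annotation, read length or strand setting. Each column matched the animal code in a single title, 0 columns were left unused, and the libraries were treated as separate mice.

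Of 26608 genes, 6335 had no count. The edgeR 4.0.16 filter (a count of about 10 in at least 3 libraries, a total of 15) left 13537 genes. The genotypes were compared by edgeR's quasi-likelihood test in R 4.3.3 after TMM scaling, with no block, and Benjamini-Hochberg adjustment over all genes tested. The common biological coefficient of variation was 22.3%. Shares and ratios were compared by two-sided exact permutation over libraries. The main edgeR test was run on simulated data, but the alternative tests, filters and scalings were not. It called 38 of 100 genes changed 2-fold and 95 of 100 changed 4-fold. Among 13157 unchanged genes it made 7 false calls. The changed genes were drawn only from those with a higher mean count, so the recovery rates do not cover scarce genes. The floor was 3 counts, and 95% intervals of pooled counts are exact and cover counting error only.

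The members and 21 gene lists were chosen with earlier results of these data known. All 374 list memberships matched a row, 3 through an older symbol. From each list up to 4 called genes with the smallest adjusted p, or up to 2 of the most abundant where none was called, were to be named, and any list member where its role is given, besides the members, Mdm2, sex chromosome genes, the 3 genes nearest to each tested member in pattern, other Cyp3a genes and chromosomal neighbours. Mup10 was chosen after its values were seen. Not every gene under this rule is printed. Promoters came from RefSeq (GRCm38.p6) and transcripts from GENCODE M21, and gene order from the RefSeq table. Protein sequences were not used here, so the planned search of proteins was made on coding sequence. Alternatives were other scalings, filters and tests (DESeq2 1.42.0, limma-voom with limma 3.58.1, a threshold of 1.5-fold in the test), a block for the replicate number, summed copies and leaving out each mouse. Adding up copies other than the Cyp3a41a and Cyp3a41b pair was chosen after seeing the data.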

Additional observations from a re-analysis of the deposited data

How the results depend on the processing

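Cyp3a44 kept a positive log2 fold change under all 20 alternatives (3.99 to 5.42, adjusted p from 1.1e-09 to 0.0954) and lost its call only without LiK 1, LiK 2 or LiK 3 (log2 fold changes of 4.98, 5.01 and 5.26), so that the count of members called as higher ranged from 0 to 1 when a mouse was left out. Cyp3a11 stayed positive and uncalled (1.06 to 1.39 over other settings, 0.60 to 1.51 with a mouse left out). Cyp3a13 turned to 0.079 with library totals, a scaling that moves the median of all genes to 0.16, and ranged from -0.24 to 0.036 with a mouse left out (0.0047 without LiKM 2, 0.036 without LiK 2), and Cyp3a25 ranged from -0.42 to 0.075 (0.075 without LiK 2). The cause was not tested. The difference in family share ranged from 0.197 to 0.377 percentage points, and that in the Cyp3a11 share from 8.87 to 25.8, with a mouse left out. The 802 genes called became 1591 with DESeq2, 1323 with limma-voom, 127 against a 1.5-fold change and 19 to 626 with a mouse left out (31 without LiK 1, 19 without LiK 2, 47 without LiKM 2). The 692 higher became 1039 with library totals, 1214, 1063, 115 and 18 to 525, and the 110 lower became 63 with library totals, 377, 260, 12 and 1 to 101 under the same settings. The 63 list genes called became 106 with DESeq2, 19 against a 1.5-fold change and 8 to 59 with a mouse left out. The replicate number as a block gave 835 calls, 166 of them lower, and left Cyp3a44 called (4.84, adjusted p 0.0181). Same-numbered mice of both genotypes correlated at 0.27, -0.00 and 0.13 in their deviations, and other pairs at -0.20 to 0.05. Not every library correlated best with its own number. With 3 mice per genotype these values cannot decide whether the numbers pair the samples. Depth limits Cyp3a16, Cyp3a41a and Cyp3a41b, where a count of 3 corresponds to 0.123 to 0.151 CPM.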
